A study of Mus musculus with 4 samples.

Results

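The genes described here are 9 genes with which a pancreatic beta cell takes up glucose, reads it and couples it to insulin release: Slc2a2, G6pc2, Abcc8, Kcnj11, Slc30a8, Ucn3, Ffar1, Trpm5 and Tmem27 (Cltrn in the RefSeq gene table). They were chosen by name. The non-control probes that the array files assign to them number 12, of 55681 probes for 34821 gene names in all. The RNA of each sample was hybridised to 1 Agilent mouse array in a single colour, 4 arrays in all. Islet-like clusters (2 arrays) had been formed in culture from cells of the pancreas that resemble mesenchymal stromal cells, and islets of Langerhans (2 arrays) were the native tissue they were set against. The clusters were collected after 10 days in low-adherence dishes in serum-free medium with albumin, insulin, transferrin and selenium. They received 0.3 mM taurine on day 3, and on day 7 nicotinamide at 100 mM, taurine at 3 mM and GLP-1, an incretin hormone. The islets were rinsed out of flasks seeded with the same collagenase digest. The labels contradict each other on how long these were cultured: the titles say 48 h, and the descriptions say freshly isolated. All mice were Swiss albino males aged 10 to 12 weeks, pooled in groups of 2 to 4. Nothing in the labels ties the 2 arrays of a group to different pools. The p-values thus reflect array-to-array spread alone, possibly technical spread. The starting cells were not measured here, so the comparison is between the clusters and islets and not before and after induction.

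In a beta cell, glucose enters through a facilitated transporter, is phosphorylated and is burned for ATP. The rise in ATP closes the ATP-sensitive potassium (KATP) channel, a complex of a pore and a regulatory subunit. The membrane then depolarises, calcium enters and insulin granules, in which insulin is stored with zinc, fuse with the membrane. Fatty acid receptors and calcium-activated cation channels add to this signal, and Ucn3 is a peptide marker of mature beta cells in the mouse.

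Several of the 12 probes read different stretches of one transcript, and the result for 3 genes depends on the stretch. The sequences of those 3 pairs of probes are therefore given, 30 of the 60 bases of each, 5′ to 3′, from the array files and with the mm9 positions of the whole probe. The Abcc8 probes lie on the minus strand at chr7:53359908-53359967 (probe a) and chr7:53359921-53359980 (probe b). They share 47 bases, and the 13 bases that each has alone are in capitals. The Kcnj11 probes lie on the minus strand at chr7:53353119-53353178 (probe a) and chr7:53354095-53354154 (probe b), and their starts are 976 bases apart. Capitals mark a TGA at the end of probe b. The Tmem27 probes lie on the plus strand at chrX:160556732-160556791 (probe a) and chrX:160546391-160546450 (probe b). Capitals mark AATAAA, the usual polyadenylation signal, in probe a.
Abcc8 probe a, bases 31 to 60: ctgtaaatcacttgtaaATAAAGAAATTAA
Abcc8 probe b, bases 1 to 30: AGCGTGCCGCCCCgcacctcacttgcttgc
Kcnj11 probe a, bases 31 to 60: gtgagggaaaaggaagtccccaaggccctt
Kcnj11 probe b, bases 31 to 60: tttagcatctctccagattccttgtccTGA
Tmem27 probe a, bases 29 to 58: ctatgctgatttAATAAAgtagtgatcatc
Tmem27 probe b, bases 31 to 60: tggttctatctggaatccggcaacgcagaa

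Between 59.7% and 63.6% of the spots were well above background on the 4 arrays, and no spot was saturated. Pearson's r across genes was 0.985 between the cluster arrays and 0.989 between the islet arrays. The 6 acinar markers (Cpa1, Cpb1, Cela2a, Cel, Prss2 and Pnlip) all cleared the background on each islet array. In the clusters, 2 of the 6 were so on both arrays and 3 (Cpa1, Cela2a and Pnlip) on neither. The log2 of their summed scaled signal was -1.02 and -1.13 in the clusters, against 11.33 and 11.95 in the islets. For the 6 stromal markers it was 10.49 and 10.24 in the clusters, against 5.07 and 5.46 in the islets. For the 6 beta cell markers it was 2.51 and 2.17 in the clusters, against 6.97 and 4.42 in the islets, and Iapp and Pdx1 were not well above background in the clusters. Most of the cluster sum was Mafa, at 2.26 and 1.99 in the clusters, against 1.77 and 1.69 in the islets, and the other 5 lay at -0.82 or lower in the clusters. The arrays labelled as islets thus carried high acinar signal beside islet hormone signal.

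Of the 9 genes, 5 passed the filter on dim probes (flagged as well above background on the 2 arrays of one group or of both). Slc2a2, Abcc8, Kcnj11 and Tmem27 fell in the clusters relative to the islets, Trpm5 did not pass the test, and none rose. This is 4 of 5 lower and 0 of 5 higher, where of the 24596 genes tested 28.2% were lower, 26.6% were higher and 54.8% changed in either direction (limma, Benjamini-Hochberg adjusted p under 0.05 over all genes). The other 4 genes were not tested. G6pc2 and Slc30a8 were well above background on 1 islet array only, and Ucn3 and Ffar1 on none of the 4 arrays. Slc2a2, Kcnj11 and Tmem27, 3 of the 4 genes that fell, passed the filter through the islets alone, which fixed their direction, so the count is not read against those shares. In bulk samples such as these, fewer cells of a type and less RNA per cell cannot be told apart.

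**Figure D1:**
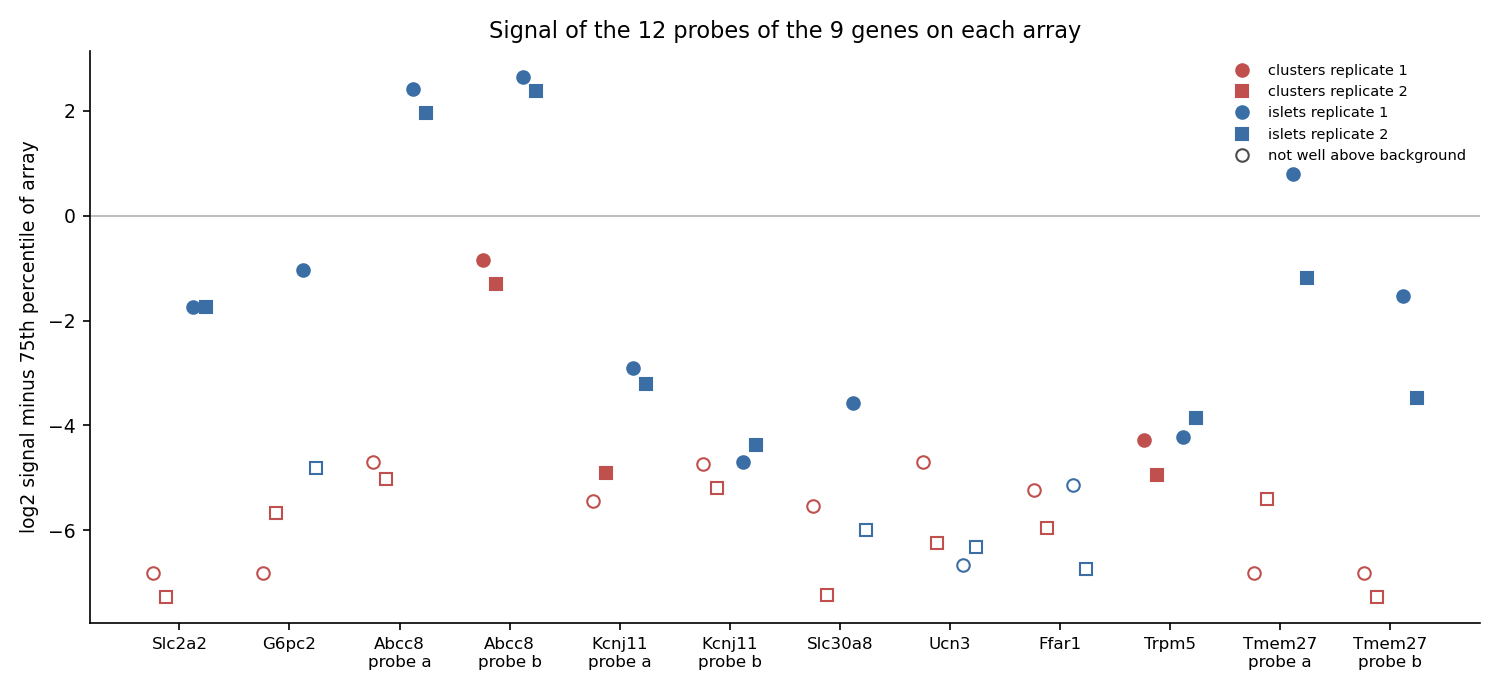
Each point is a probe's log2 processed signal minus the 75th percentile of its array (vertical axis, log2 units) for the 12 probes of the 9 genes, clusters in red and islets in blue, circles for replicate 1 and squares for replicate 2, open where the spot was not well above background. Filled red points appear for Abcc8 probe b and Trpm5 on both cluster arrays and for Kcnj11 probe a on 1, and the probes of Ucn3 and Ffar1 are open on all 4 arrays. Heights of different probes are not comparable.

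Slc2a2 encodes GLUT2, the facilitated glucose transporter of rodent beta cells and also of hepatocytes. Its 1 probe (chr3:28627016-28627075, plus strand) had processed signals of 2.91 and 2.52 in the clusters, neither well above background, against 97.3 and 75 in the islets. On the scaled log2 axis these were -6.82 and -7.27 in the clusters, against -1.74 and -1.73 in the islets, which are log2 units relative to each array's 75th percentile. The groups were far apart and the islet arrays were nearly equal. The fitted difference, clusters minus islets, was -5.31 ± 0.25 (log2, SE, n = 2 arrays each; limma adjusted p = 1.52e-07). Both cluster values were surrogates set by the software for spots not above background, so the SE holds no measured cluster spread. Because the probe had no measured level in the clusters, the fold is a bound by rule. Slc2a2 was at least 11.1-fold lower, the mean of the islets against the lowest well-detected signal of each cluster array. Spots not well above background can lie above that signal, so folds given as at least are not strict minima. Under normexp background correction, which raises dim signals, the difference was -1.62 and still passed the test. Slc2a2 passed the filter through the islets alone, which fixed its direction, so this call is not read as support.

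G6pc2 encodes an islet-specific glucose-6-phosphatase catalytic subunit, which removes the phosphate again and sets the glucose threshold of the beta cell in mice. Its probe (chr2:69065947-69066006, plus strand) had signals of 2.91 and 7.57 in the clusters, against 160 and 8.91 in the islets. Only islets replicate 1 was well above background. After scaling it was 13.7-fold higher than the dim signal of islets replicate 2, which is not a minimum. The scaled log2 values were -6.82 and -5.68 in the clusters, against -1.03 and -4.81 in the islets. The values did not overlap, but only islets replicate 1 was measured, and the difference of means (-3.33) rests on it. From islets replicate 1 alone, G6pc2 was at least 18.1-fold lower in the clusters. No fold is given from islets replicate 2 or from the 2 islet arrays together. With no filter on dim probes the limma adjusted p was 0.0762.

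Abcc8 encodes SUR1, the regulatory subunit of the beta cell KATP channel and the target of sulfonylurea drugs. Probe b, the brighter of its pair and so the one used for the gene, had signals of 183 and 157 in the clusters, against 2045 and 1295 in the islets, all well above background. After scaling, the log2 values were -0.84 and -1.30 in the clusters, against 2.65 and 2.38 in the islets. The gap between the groups was larger than the spread within either. Abcc8 was 12.0-fold lower in the clusters by this probe (log2 difference -3.59 ± 0.26, SE; limma adjusted p = 2.66e-06).

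Probe a of Abcc8 gave another size for the same gene. Its signals were 12.6 and 11.9 in the clusters, not well above background on either array, against 1743 and 969 in the islets. The scaled log2 values were -4.71 and -5.03 in the clusters, against 2.42 and 1.96 in the islets. By this probe Abcc8 was 133-fold lower in the clusters (limma over all probes, log2 difference -7.06 ± 0.27, adjusted p = 4.66e-07). This fold uses the probe's own dim cluster signals, which lay above each array's lowest well-detected signal, so it is not a minimum. Both probes therefore placed Abcc8 lower in the clusters, and they differed by 3.47 log2 units in how much. Their sequences, printed above, are shifted by 13 bases. The stretch that probe b has alone is 84.6% G and C, against 7.7% for the stretch that probe a has alone. Probe a also holds AATAAA. On the array, 0 other non-control probes hold the stretch of probe b, which cannot show whether probe b binds another RNA. Among 282 pairs of tested probes of 1 gene that share at least 30 bases, the median size of such a disagreement was 0.13 and the 95th percentile 1.48. Only 2 of the pairs, Abcc8 included, disagreed by as much as Abcc8 did. Whether probe b or probe a is nearer to the level of Abcc8 RNA in the clusters was not tested.

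Kcnj11 encodes Kir6.2, the pore of the same channel. Probe a had signals of 7.57 and 12.8 in the clusters, of which the second was well above background, against 43.8 and 26.9 in the islets. In scaled log2 units it had -5.44 and -4.92 in the clusters, against -2.90 and -3.21 in the islets, so the groups did not overlap. Kcnj11, measured on 1 of 2 cluster arrays, was 4.36-fold lower in the clusters by this probe (log2 difference -2.12 ± 0.27, SE; limma adjusted p = 1.28e-04). The difference was -0.65 under normexp background correction (limma adjusted p = 0.0142). Kcnj11 passed the filter through the islets alone, which fixed its direction, so this call is not read as support.

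Probe b of Kcnj11 was dim in both groups. Its signals were 12.3 and 10.7 in the clusters, not well above background, against 12.6 and 12.1 in the islets, just well above it. The scaled log2 values were -4.74 and -5.19 in the clusters, against -4.69 and -4.37 in the islets, so that the nearest arrays of the groups were almost level. Its difference of -0.43 ± 0.26 did not pass the test (limma over all probes, adjusted p = 0.201). The size for Kcnj11 thus rests on probe a, and the mean of both probes gave -1.28.

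**Figure D2:**
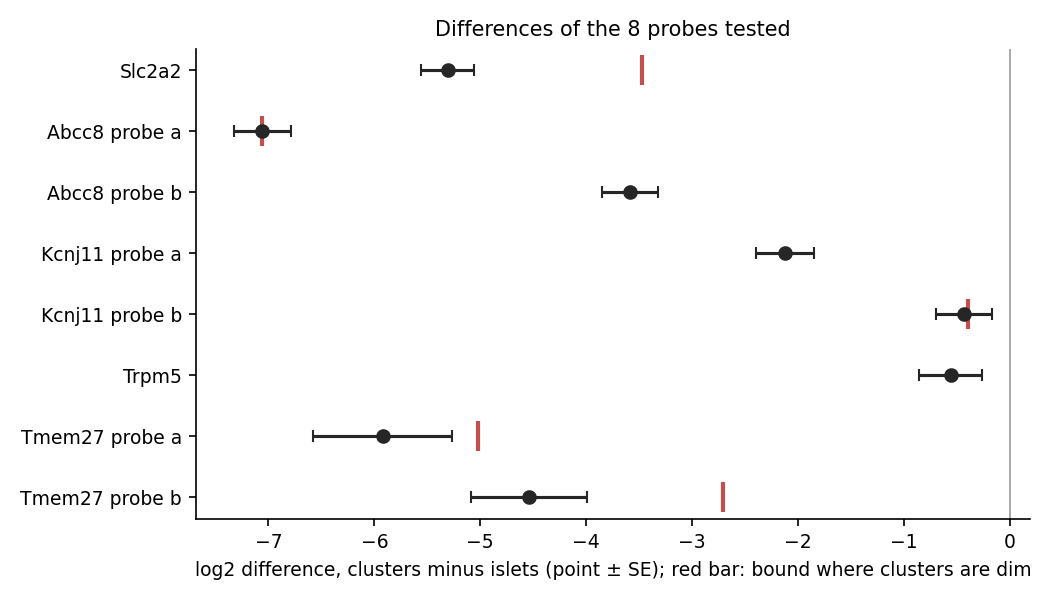
Points are the fitted log2 differences, clusters minus islets, of the 8 probes of the 5 genes tested (horizontal axis, log2 units; bars are ± SE, 2 arrays a group), and red bars mark the bound where the clusters were not well above background. The points run from -7.06 for Abcc8 probe a to -0.43 for Kcnj11 probe b, and the bounds of Slc2a2 and both Tmem27 probes lie nearer to 0 than their points. The red bars are bounds by rule and not strict minima, and that of Abcc8 probe a lies on its point.

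Slc30a8 encodes ZnT8, which loads zinc into insulin granules. Its probe (chr15:52167214-52167273, plus strand) had signals of 7.12 and 2.59 in the clusters, against 27.3 and 3.89 in the islets, with only islets replicate 1 well above background. Scaled to the array, the log2 values were -5.53 and -7.23 in the clusters, against -3.58 and -6.00 in the islets. The groups overlapped, since clusters replicate 1 lay above islets replicate 2, and with no filter the limma adjusted p was 0.234. From islets replicate 1 alone, Slc30a8 was at least 3.10-fold lower in the clusters. Islets replicate 2 alone gave no bound, so no fold is given for the 2 islet arrays together.

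Ucn3 encodes urocortin 3, a peptide that beta cells release with insulin and that acts on delta cells in mice. Its probe (chr13:3940178-3940237, minus strand) had signals of 12.8 and 5.14 in the clusters, against 3.23 and 3.11 in the islets. Ffar1 encodes GPR40, a receptor for long-chain fatty acids that raises glucose-stimulated insulin secretion. Its probe (chr7:31645724-31645783, minus strand) had signals of 8.75 and 6.23 in the clusters, against 9.25 and 2.34 in the islets. Neither probe was well above background on any array, so no fold is given for these genes. The islets here therefore gave no measured level for 2 genes of mature mouse beta cells, and their level in the clusters cannot be set against it. With no filter, the limma adjusted p was 0.191 for Ucn3 and 0.717 for Ffar1.

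Trpm5 encodes a calcium-activated cation channel of beta cells, which is also a defining channel of tuft cells and of taste cells. It was the 1 gene of the 9 measured on all 4 arrays besides Abcc8 by probe b. Its signals were 17.0 and 12.7 in the clusters, against 17.4 and 17.1 in the islets. The scaled log2 values were -4.28 and -4.94 in the clusters, against -4.23 and -3.87 in the islets, with 1 cluster array almost level with an islet array. The difference was -0.56 ± 0.29 (SE; 95% confidence interval -1.21 to 0.09), and it did not pass the test (limma adjusted p = 0.127; 0.0694 to 0.683 over the alternatives). This does not show that Trpm5 was equal in both. Its signals lay near background: on clusters replicate 1, Ucn3 at 12.8 was not well above it. The array files align only 23 of the probe's 60 bases to mm9 (chr7:150257434-150257456, minus strand). Beside it, the 4 tuft cell markers moved unevenly. The log2 of their summed scaled signal was 2.55 and 2.28 in the clusters, against -1.25 and -0.96 in the islets. Dclk1 rose by 4.27 log2 units. Avil was 24.5-fold higher in the clusters, set against its own islet signals, which were not well above background, so this is not a minimum. Gfi1b fell by 1.01, and Pou2f3, at -0.61, did not pass the test. The call of Gfi1b was lost in 4 of 17 alternatives, among them normexp (-0.42, adjusted p = 0.133) and without islets replicate 1 or 2 (adjusted p = 0.157 and 0.153). The part of tuft cells or of any other cell in the Trpm5 signal was not tested.

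Tmem27 encodes collectrin, a membrane protein of beta cells and kidney that is shed from the beta cell surface by the protease BACE2. Probe a, used for the gene, had signals of 2.91 and 9.20 in the clusters, neither well above background, against 567 and 110 in the islets. These were scaled log2 values of -6.82 and -5.40 in the clusters, against 0.80 and -1.18 in the islets. The groups did not overlap, although the 2 islet arrays differed by 1.98. Tmem27 was at least 32.4-fold lower in the clusters (log2 difference -5.92 ± 0.62, SE; limma adjusted p = 3.51e-05), at least 64.4-fold against islets replicate 1 alone and 16.3-fold against islets replicate 2 alone. The value of 2.91 on clusters replicate 1 was a surrogate, so the SE rests partly on a value that was not measured. The difference was -2.36 under normexp background correction and still passed the test. Tmem27 passed the filter through the islets alone, which fixed its direction, so this call is not read as support.

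Probe b of Tmem27 went the same way at a smaller size. Its signals were 2.91 and 2.52 in the clusters, against 112 and 22.5 in the islets, and both cluster values were surrogates, not well above background. By this probe Tmem27 was at least 6.51-fold lower in the clusters (limma over all probes, log2 difference -4.54 ± 0.55, adjusted p = 2.51e-04), at least 12.8-fold against islets replicate 1 alone and 3.33-fold against islets replicate 2 alone. In all, 6 of the 8 probes tested were lower in the clusters and none was higher, where of the 34974 probes tested 26.8% were lower, 26.4% were higher and 53.2% changed in either direction. Of the 6, 5 passed the filter through the islets alone (all but Abcc8 probe b), so nothing is read from this count.

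The islet arrays differed from each other unevenly across the 9 genes. Islets replicate 1 minus islets replicate 2 was 1.98 and 1.94 log2 units for the Tmem27 probes. G6pc2 and Slc30a8 were not well above background on islets replicate 2. For Slc30a8 the difference was at least 1.30, against that array's lowest well-detected signal. For G6pc2 it was 3.78 against the probe's own dim signal, which is not a minimum. It was 0.46 and 0.28 for the Abcc8 probes, 0.32 and -0.32 for the Kcnj11 probes, -0.01 for Slc2a2 and -0.36 for Trpm5. Ucn3 and Ffar1 were measured on neither islet array. Across all genes tested, the 5th and 95th percentiles of such differences were -0.79 and 0.62, with a median of -0.02. Hormone genes were also higher on islets replicate 1, by 2.62 for Ins1, 2.60 for Ins2, 3.07 for Iapp, 2.02 for Gcg, 1.73 for Ppy and 0.78 for Sst. Pdx1, Nkx6-1 and Mafa differed by 0.32, 0.19 and 0.08. All 6 acinar markers were lower on islets replicate 1, with a median difference of -0.76, and the stromal markers had a median difference of -0.37. The median was -1.62 for the 2 macrophage markers and 0.65 for the 3 duct markers. The part of cell makeup in the level of G6pc2, Slc30a8 and Tmem27 was not tested.

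**Figure D3:**
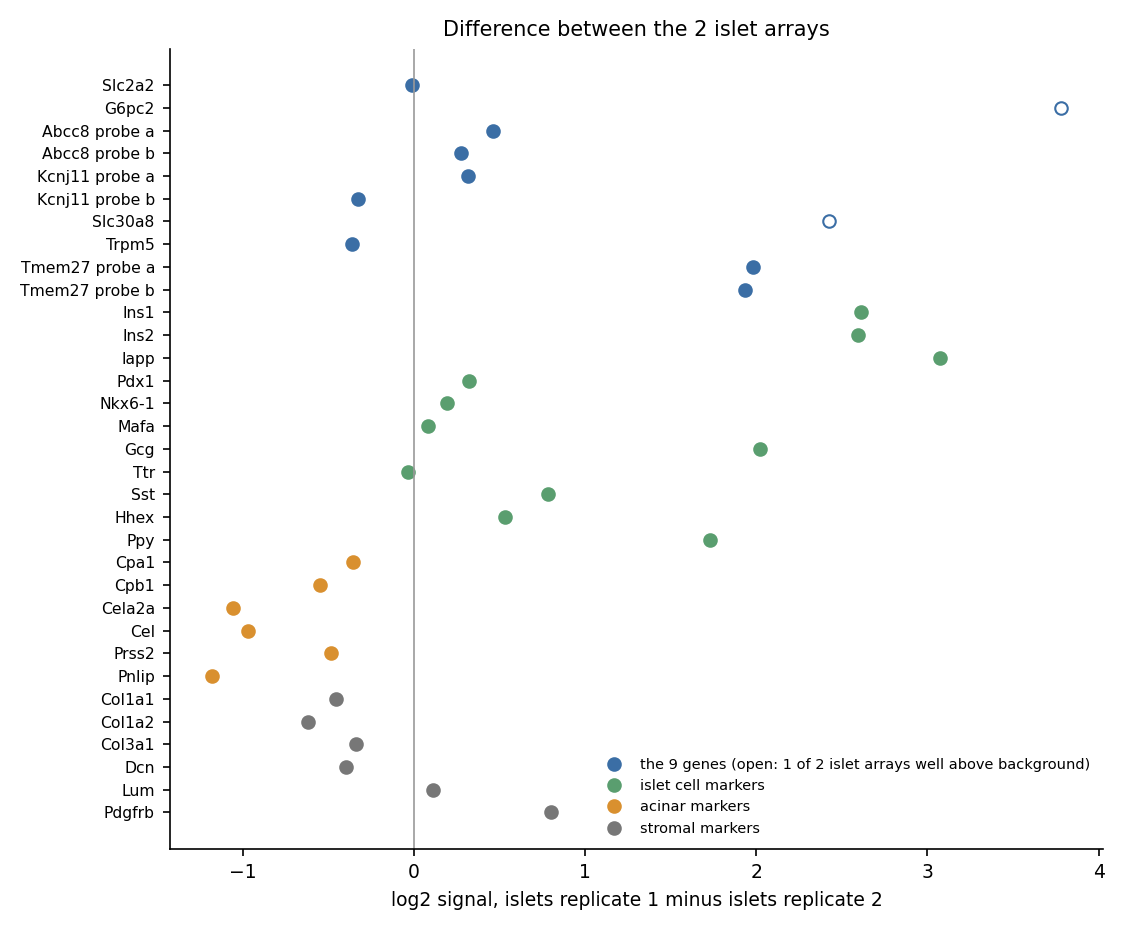
Each point is the log2 signal of a gene on islets replicate 1 minus islets replicate 2 (horizontal axis, log2 units), for the probes of the 9 genes (blue, open where only 1 islet array was well above background) and for islet cell (green), acinar (orange) and stromal (grey) markers. Ucn3, Ffar1 and markers not well above background on the islet arrays are left out. Tmem27 lies at 1.94 and 1.98, and the open points of G6pc2 and Slc30a8 lie at 3.78 and 2.43, against the probe's own dim signal on replicate 2. The hormone genes run from 0.78 for Sst to 3.07 for Iapp, and Slc2a2, Abcc8, Kcnj11 and Trpm5 lie between -0.36 and 0.46.

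Relatives of the 9 genes, by gene family or by shared ligand, moved in both directions. Of 24 such genes, 19 were tested, of which 7 rose, 8 fell and 4 did not pass the test, with a median log2 difference of 0.13. Over all 24596 genes tested, 6545 rose and 6945 fell, with a median of -0.10. Both subunits of the KATP channel of smooth muscle and other non-endocrine cells rose. Of the beta cell channel, Abcc8 fell by both probes and Kcnj11 by probe a only. Probe b of Kcnj11 did not pass the test (limma over all probes, -0.43, adjusted p = 0.201). Kcnj11 also passed the filter through the islets alone, which fixed its direction. Kcnj8, which encodes the pore Kir6.1, had scaled log2 values of 1.97 and 1.78 in the clusters, against -2.79 and -3.23 in the islets. It was 29.6-fold higher in the clusters (log2 difference 4.89 ± 0.25, limma adjusted p = 2.90e-07). Abcc9, which encodes SUR2, had -1.42 and -1.74 in the clusters, against -2.75 and -2.99 in the islets. It was 2.44-fold higher in the clusters (1.29 ± 0.24, limma adjusted p = 0.0017), a call that was lost without islets replicate 2 (1.17, adjusted p = 0.0898). The stromal markers, given above, were also higher in the clusters, and their part in the levels of Kcnj8 and Abcc9 was not tested.

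**Figure D4:**
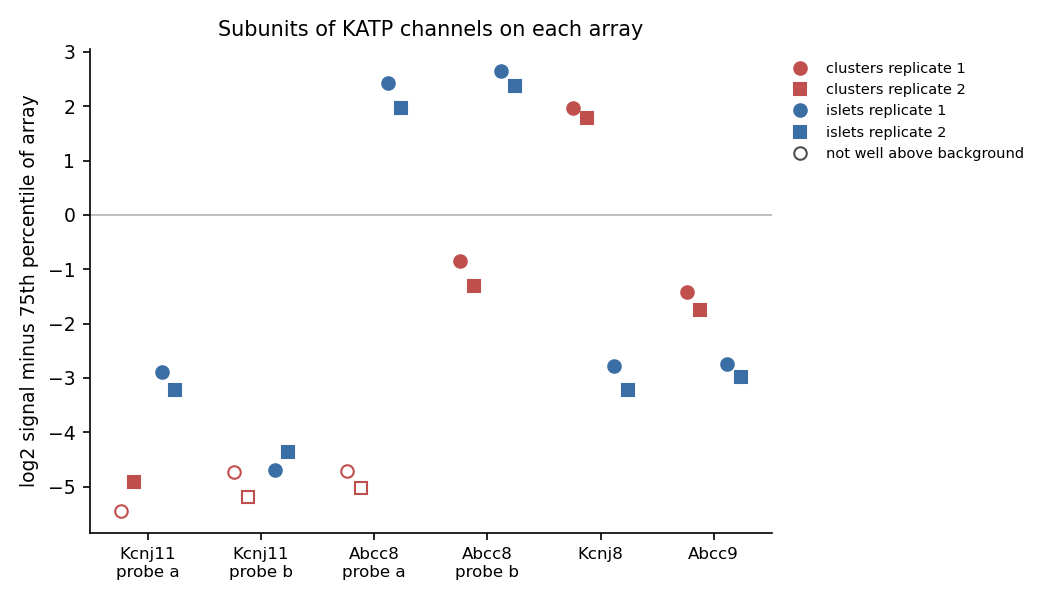
Each point is a probe's log2 processed signal minus the 75th percentile of its array (vertical axis, log2 units) for the beta cell KATP subunits Kcnj11 and Abcc8 and for their paralogs Kcnj8 and Abcc9, clusters in red and islets in blue, open where not well above background. Clusters lie below islets for Kcnj11 probe a and both Abcc8 probes and above islets for Kcnj8 and Abcc9; heights of different probes are not comparable.

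Among the other glucose transporters, Slc2a1 (GLUT1, the transporter of most cells) was 2.76-fold higher in the clusters (log2 difference 1.47 ± 0.23, limma adjusted p = 5.55e-04). Slc2a4, the insulin-responsive transporter of muscle and fat, rose by 1.55, a call lost under normexp background correction (0.49, adjusted p = 0.0744). Slc2a3, the transporter of neurons, was at least 2.71-fold lower in the clusters, a call also lost there (-0.52, adjusted p = 0.0588). The relatives of G6pc2 did not pass the test: G6pc differed by -0.46 (adjusted p = 0.124) and the broadly expressed G6pc3 by 0.35 (adjusted p = 0.226). Over 17 alternatives, G6pc was called lower in 3 (lowest adjusted p = 0.0109) and G6pc3 higher in 1, median scaling (adjusted p = 0.0273). Of the other fatty acid receptors, the long-chain receptor Ffar4 was at least 24.5-fold lower in the clusters and the short-chain receptor Ffar2 fell by 3.57. The fitted difference of Ffar4, -6.34, was -5.70 without islets replicate 1 and -6.99 without islets replicate 2. Ffar3, at 0.35, did not pass the test (adjusted p = 0.255).

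Of 12 receptors and partners of the 9 genes, 10 were tested, of which 3 rose, 3 fell and 4 did not pass the test, with a median of -0.38. The zinc-binding metallothioneins Mt1 and Mt2 fell by 2.68 and 2.52 log2 units. The zinc importers Slc39a14 and Slc39a6 rose by 3.28 and 2.29. Slc39a7, at 0.81, and the taste receptor subunit Tas1r3, at -1.14, passed the test but lost the call without islets replicate 2 (adjusted p = 0.308 and 0.138). The receptor of Ucn3, Crhr2, differed by -0.44 (adjusted p = 0.135), and the related Crhr1 by 0.12 (adjusted p = 0.683). Crhr2 was called lower in 1 of 17 alternatives, scaling to the percentile over probes detected on all arrays (-0.63, limma adjusted p = 0.0253).

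Of 35 other genes of glucose sensing and secretion coupling, 30 were tested, of which 12 rose, 13 fell and 5 did not pass the test, with a median of 0.03. Gckr, best known from liver, was at least 23.0-fold lower in the clusters. The muscarinic receptor Chrm3 fell by 4.04, the liver and islet pyruvate kinase Pklr fell by 1.94, and the granule-docking GTPase Rab27a was at least 4.29-fold lower. The genes that rose most, each by its brightest probe, were the calcium channel subunit Cacna2d1 (5.79), the phospholipase Plcb1 (4.69), the calcium-activated potassium channel Kcnma1 (4.61) and the adenylyl cyclase Adcy5 (3.76). Their probes differed in size: the lowest gave 4.47 for Cacna2d1, 2.39 for Plcb1, 1.15 for Kcnma1 and 2.41 for Adcy5. Acinar markers were high on the islet arrays and stromal markers were high in the clusters. The part of those cells in the genes that fell or rose here was not tested.

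Genes that beta cells normally keep low, the so-called disallowed genes, numbered 16, all tested. In the clusters 6 rose, 2 fell and 8 did not pass the test, with a median of 0.14. The highest were Igfbp4 (6.81), Pdgfra (5.77), Fcgrt (3.95) and Oat (2.38), of which Pdgfra is also a receptor of stromal cells. Cxcl12, a chemokine, fell by 3.77 (its other probe gave -0.72), and Zyx, a focal adhesion protein, by 1.18. Ldha and Slc16a1, the lactate dehydrogenase and lactate transporter best known among them, did not pass the test (-0.58, adjusted p = 0.0628, and -0.31, adjusted p = 0.365). Ldha was called lower in 6 of 17 alternatives, with adjusted p from 0.00349 to 0.473 over all of them.

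Of 11 transcription factors that regulate these genes in beta cells, 10 were tested, of which 2 rose, 6 fell and 2 did not pass the test, with a median of -1.98. Foxa2 was at least 1447-fold, Hnf4a at least 837-fold and Pdx1 at least 11.3-fold lower in the clusters. Isl1 rose by 6.97 log2 units. Neurod1 rose by 1.68 and was well above background on 1 islet array, and it lost the call in 11 of the 16 alternatives in which it was tested, among them without islets replicate 2 (adjusted p = 0.126) and under normexp background correction (0.19, adjusted p = 0.532). Mafa (0.40, adjusted p = 0.180) and Nkx6-1 (-0.16, adjusted p = 0.691) did not pass the test. Over 17 alternatives, Mafa was called higher in 1, median scaling (0.59, limma adjusted p = 0.0336). Foxa2 and Hnf4a are also factors of acinar cells, whose markers were high on the islet arrays, and the part of those cells was not tested.

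Promoters of 6 of the 9 genes (300 bases around the first listed start) were in the RefSeq table of GRCm38.p6. On either strand, the homeodomain core TAATTA was found in Tmem27, as in 5.31% of 27025 promoters. The MAF half-site TGCTGA, in 19.1% of promoters, was found in Ffar1, and the E-box CATCTG, in 17.2%, in Ffar1 and Ucn3. These are matches of letters and not binding sites.

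For each gene tested, the genes with the most similar profile were taken by the Euclidean distance between centred log2 values over the 4 arrays, among 15501 genes found in the reference table. Slc2a2 was nearest to Rbm47 (distance 0.053) and Rtn4rl1 (0.054), and Abcc8 to Bcl11a (0.061) and Nfatc2 (0.10). Kcnj11 was nearest to Gmnn (0.024) and Gm15421 (0.079), and Trpm5 to Far2 (0.041) and Gm6729 (0.072). The nearest to Tmem27, Acox2 (0.60) and S100a14 (0.67), were further off. Both cluster values of Slc2a2 were surrogates, and Rtn4rl1 had the same value, -6.82, on clusters replicate 1. The likeness of these 2 genes thus rests partly on values that were not measured. With 4 arrays and 2 groups the likeness of profiles is a description only.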

How the data were processed

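Each spot has 1 linear intensity from Agilent Feature Extraction 11.5.1.1, per the file headers, which also place probes on mm9; the processed intensity deposited by the authors is background-subtracted, with a surrogate where a spot was not above background. The authors' value table, deposited as log2 values, correlated with the scanner values at r of 0.99995 or higher, with column medians of -3.61 and -3.70 (clusters) and of -3.50 and -3.37 (islets). Its values were used as an alternative. The software's flags on detection, saturation and uniformity were taken over.

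From these, log2 processed signal minus each array's 75th percentile was computed over non-control probes. Non-uniform spots were left out (490 probes lost). Probes were kept if flagged as well above background on the 2 arrays of one group or of both. A gene was represented by its kept probe with the highest mean, and probes were also fitted singly. A fold given as at least sets the mean of the brighter group, or a named array, against a dim level. On each dim array this level was the higher of the lowest well-detected signal and the probe's own. The lowest well-detected signal is not a ceiling for spots that were not well above background. On clusters replicate 1 it was 8.28, and the Ucn3 spot, at 12.8, was not well above background. A fold given as at least is therefore not a strict minimum. Where the probe's own signal was higher on an array, as for Gckr and Pdx1, the fold is less firm still. The test, clusters minus islets, was limma's (version 3.58.1, R 4.3.3; lmFit and eBayes, 2-sided, 2 residual degrees of freedom, threshold 0.05). All arrays shared a slide and a scan. The number of arrays limits the precision. The fit was tested on simulated data. In all, 17 alternatives were run.

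The 9 genes and the gene lists were chosen with earlier results of these data known. Named genes were the 9, up to 4 called genes per list and direction with the largest changes (all where a list had 6 or fewer), markers, and the 2 nearest profiles. G6pc, G6pc3, Ffar3, Crhr1, Crhr2, Ldha, Slc16a1, Mafa and Nkx6-1 were added after their values were seen. Some genes counted in the lists are not reported here by name. Replicate numbers did not pair the arrays: the deviations of same-numbered arrays correlated at r = -0.023 across 24596 genes.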

Additional observations from a re-analysis of the deposited data

How the results depend on the processing

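Slc2a2, Abcc8, Kcnj11 and Tmem27 were called lower in all 16 alternatives other than a filter that kept probes detected on every array. Their highest adjusted p was 0.00116, 0.00225, 0.0142 and 0.0166. Under that filter, 2 of the 9 genes were tested and 1 (Abcc8) was called, as was 1 of its probes, and 2 of the listed regulators were called. Slc2a2, Kcnj11 and Tmem27 were not tested there. They passed the main filter through the islets alone, which fixed their direction, so their repeated calls are not read as support. Trpm5 ranged between -0.89 and -0.22 and was never called. Disallowed genes called were 13 under normexp and 13 with trend and robust moderation, against 8. Leaving out 1 array each kept the 4 calls and gave 7650 genes called (without islets replicate 2) to 10120, with 8266 without islets replicate 1. The other glucose sensing genes called were 13 to 20, lowest without islets replicate 2. Scaling to the median moved the median of all genes to 0.09 and the split to 7937 higher and 5723 lower, and the percentile over probes detected on all arrays moved them to -0.29 and to 6066 and 8982, against -0.10, 6545 and 6945. Uncalled genes changed sign: Nkx6-1 was 0.031 under median scaling and 0.014 under quantile normalization and ranged from -0.65 to 0.32 with 1 array left out, and Crhr1 was -0.068 under the percentile over detected probes and ranged from -0.024 to 0.27. With the replicate number as a block, though the numbers pair nothing, 4 of the 9 genes and 11307 genes were called (5729 higher, 5578 lower). Zyx also lost its call with either islet array left out (adjusted p = 0.105 and 0.0670). The cause was not tested. Depth of signal limits G6pc2, Slc30a8, Ucn3, Ffar1, Trpm5 and Kcnj11 probe b, which lie near background.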
